A study of Mus musculus with 8 samples.

Results

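The 8 genes described here were 4 cytokines usually made by lymphocytes, Ifng, Il17a, Il17f and Il22, and 4 marker genes of T and NK cells, Cd3d, Cd3e, Cd3g and Klrk1, among the 55801 genes of the expression table. They were picked by symbol, each of which occurred once, and the cytokines were picked because C498 raised them in these same samples. Differences made by C498 are therefore given for them as a description, with no test. RNA came from peritoneal macrophages of young male C57BL/6 mice that had been injected with thioglycollate, which draws leukocytes into the peritoneal cavity, and cells were collected by flushing it. The cells received DMSO vehicle (NC), LPS, C498, or C498 followed by LPS (C498+LPS), with 2 samples in each group. C498 is a compound that the study took from a reporter screen for inhibition of JAK/STAT and NFκB signaling. It was given at 15 μM for 0.5 h before LPS, a wall component of Gram-negative bacteria, was added at 100 ng/ml for 4 h. Nothing in the labels says that the 2 samples of a group came from separate animals, so p-values measure only the spread between these samples.

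IFN-γ, the product of Ifng, is the main cytokine of NK cells and type 1 T cells and activates macrophages. IL-17A and IL-17F, encoded by neighbouring genes, and IL-22 are typical of Th17 cells, IL-17-producing γδ T cells and innate lymphoid cells. CD3δ, CD3ε and CD3γ are the invariant chains of the T cell receptor complex and mark T cells of every kind. Klrk1 encodes NKG2D, an activating receptor known on NK cells, CD8 T cells, γδ T cells and activated mouse macrophages. A peritoneal exudate is mostly macrophages but also holds lymphocytes, so the question here was whether cytokine and lymphocyte transcripts moved together. Bulk RNA does not assign a transcript to a cell, and fewer cells of a type cannot be told apart from less RNA per cell.

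The regions before the start sites of Ifng, Il17a and Il17f, the cytokines that were higher with C498 both without and with LPS, are shown to give the genomic context of genes whose levels went together. They are the 250 bases before the RefSeq start on GRCm38.p6, written 5′ to 3′ on the strand of the gene: chr10:118440796-118441045 on the plus strand for Ifng, chr1:20730655-20730904 on the plus strand for Il17a and chr1:20784271-20784520 on the minus strand for Il17f. Capitals mark matches, on either strand, to GGAAA (the core bound by NFAT), TGANTCA (AP-1), AGGTCA (bound by nuclear receptors) or TCACACCT (T-box).
Ifng: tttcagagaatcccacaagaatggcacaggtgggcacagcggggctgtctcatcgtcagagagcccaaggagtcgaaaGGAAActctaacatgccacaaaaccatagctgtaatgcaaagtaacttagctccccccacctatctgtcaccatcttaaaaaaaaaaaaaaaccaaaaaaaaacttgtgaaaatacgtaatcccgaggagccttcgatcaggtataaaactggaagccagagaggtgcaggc
Il17a: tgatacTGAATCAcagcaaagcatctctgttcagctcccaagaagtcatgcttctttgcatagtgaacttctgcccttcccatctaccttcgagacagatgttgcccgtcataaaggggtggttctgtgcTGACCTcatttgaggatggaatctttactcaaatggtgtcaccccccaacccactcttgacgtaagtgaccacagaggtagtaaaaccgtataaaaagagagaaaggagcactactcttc
Il17f: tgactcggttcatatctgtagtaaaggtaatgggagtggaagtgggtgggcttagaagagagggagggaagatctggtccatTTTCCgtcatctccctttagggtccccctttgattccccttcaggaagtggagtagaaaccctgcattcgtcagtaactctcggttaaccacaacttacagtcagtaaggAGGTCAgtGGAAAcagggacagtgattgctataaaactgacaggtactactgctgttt

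The window before Ifng held 1 GGAAA, that before Il17a held 1 AP-1 match, TGAATCA, and 1 AGGTCA on the reverse strand, and that before Il17f held GGAAA on both strands and 1 AGGTCA. No match overlapped another. Among the 32817 RefSeq promoters of 300 bases, which add 50 bases after the start, GGAAA occurred in 61.3%, AGGTCA in 16.3%, TGANTCA in 7.81% and TCACACCT in 1.27%. These matches describe the letters and are not evidence of binding. The 300-base window of Il22 held 1 GGAAA, and TCACACCT was in none of the 4 cytokine windows. Il17a and Il17f start 53.4 kb apart on chromosome 1 with 0 protein-coding genes between them. Il22 and Ifng start 236 kb apart on chromosome 10 with only Iltifb, a near-identical copy of Il22, between them.

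Values are TPM, relative transcript abundances that correct for transcript length and library total and so allow levels of different genes to be compared. Between 17528 and 18975 genes were above 0 in a sample. Samples sum to the same total, the number of reads is unknown, so no counting interval can be given for low values. Replicate 2 of C498+LPS stood apart in its content of several lymphocyte transcripts. Compared with replicate 1, its summed level was 2.42 times as high for Cd3d, Cd3e and Cd3g, 1.40 times for 25 T cell markers (22 of 25 higher), 1.5 times for 19 NK cell and cytotoxic markers (14 higher), 2.14 times for 9 type 1 lymphocyte markers (9 of 9 higher), 1.51 times for B cell markers and 1.65 times for mast cell markers. Its macrophage marker sum was 0.877 times that of replicate 1, and 12 of 13 macrophage markers were lower. The sums of γδ T cell and type 17 markers, most of which is Il7r, and of neutrophil markers were also lower, at 0.975 and 0.818 times. Of the 19 γδ T cell and type 17 markers, however, 13 were higher and 6 lower in replicate 2, and of 12 neutrophil markers 4 and 5. Over all genes tested the median ratio was 0.966. The sum of the 4 cytokines was 1.58 times as high in replicate 2, so values without this sample are given for named calls of C498+LPS that end without it.

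**Figure D1:**
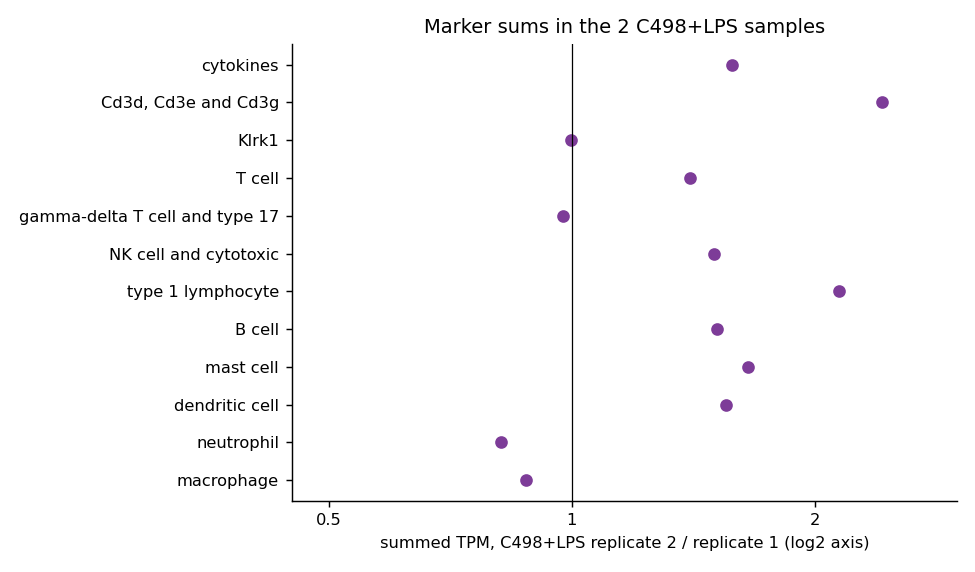
Ratio of summed TPM in C498+LPS replicate 2 over replicate 1 (log2 axis), 1 point for each gene set, with the line at 1 marking equal sums. The cytokine sum (1.58), the Cd3 sum (2.42) and the T, NK, type 1, B and mast cell marker sums lie above 1, Klrk1 lies at 0.997, the γδ T cell and type 17 sum at 0.975, the macrophage sum at 0.877 and the neutrophil sum at 0.818.

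Ifng (ENSMUSG00000055170) was measured at 0.88 and 1.15 TPM in NC, 5.65 and 5.22 in LPS, 12.7 and 14.7 in C498, and 25.9 and 48.0 in C498+LPS. The 4 groups did not overlap, and the order was NC, LPS, C498 and C498+LPS. The mean in C498 was 13.5 times that in NC, and the mean in C498+LPS, 36.9 ± 15.7 TPM (SD, n = 2), was 6.80 times that in LPS, 5.44 ± 0.304 TPM (SD, n = 2). On the log2(TPM + 1) scale the differences were 2.87 and 2.50, and the second was 2.06 without C498+LPS replicate 2. Even the lower C498+LPS sample was above both C498 samples and both LPS samples. The study reported the opposite direction by RT-PCR, with LPS-induced IFN-γ transcripts diminished by C498 in peritoneal macrophages. That experiment used a lower C498 dose, a higher LPS dose and other LPS times.

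Il17a (ENSMUSG00000025929) was at 0.68 and 0.20 TPM in NC, 6.24 and 8.03 in LPS, 8.28 and 9.89 in C498, and 20.1 and 27.9 in C498+LPS. The same order of groups was seen as for Ifng, but LPS and C498 were next to each other, with the higher LPS sample just under the lower C498 sample. The differences made by C498 were 2.82 without LPS and 1.61 with LPS on the log2(TPM + 1) scale, the latter 1.38 without C498+LPS replicate 2. Il17f (ENSMUSG00000041872) was at 0.15 and 0 TPM in NC, 4.31 and 3.51 in LPS, 2.55 and 2.61 in C498, and 5.96 and 5.81 in C498+LPS. It was also lowest in NC and highest in C498+LPS, but here LPS alone gave higher levels than C498 alone. Its C498 differences were 1.74 without LPS and 0.49 with LPS, the latter from 3.91 ± 0.566 to 5.88 ± 0.106 TPM (SD, n = 2), and 0.51 without C498+LPS replicate 2.

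Il22 (ENSMUSG00000074695) was at 0 and 0.07 TPM in NC, 3.70 and 3.32 in LPS, 2.07 and 1.12 in C498, and 2.31 and 3.75 in C498+LPS. Both C498 samples were above both NC samples, but C498+LPS and LPS overlapped, with a difference of -0.18 that became 0.08 without C498+LPS replicate 1 and -0.45 without replicate 2. Il22 was thus above its control with C498 in the absence of LPS only, in contrast to the description under which it was chosen. Reads of Il22 may also be shared with its near-identical copy, listed as Il22b, which was at 0.23 TPM in C498+LPS replicate 1 and at 0 in the other samples, so the Il22 levels are uncertain. Il17f and Il22 were close to 0 in NC and passed the filter on low values, a mean of 1 TPM, only through the treated groups. Among the 12189 genes that passed this filter, both C498 samples were above both NC samples for 29.3%, and both C498+LPS samples were above both LPS samples for 31.9%. Nothing is read from that background for the cytokines, because they were chosen on these contrasts.

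**Figure D2:**
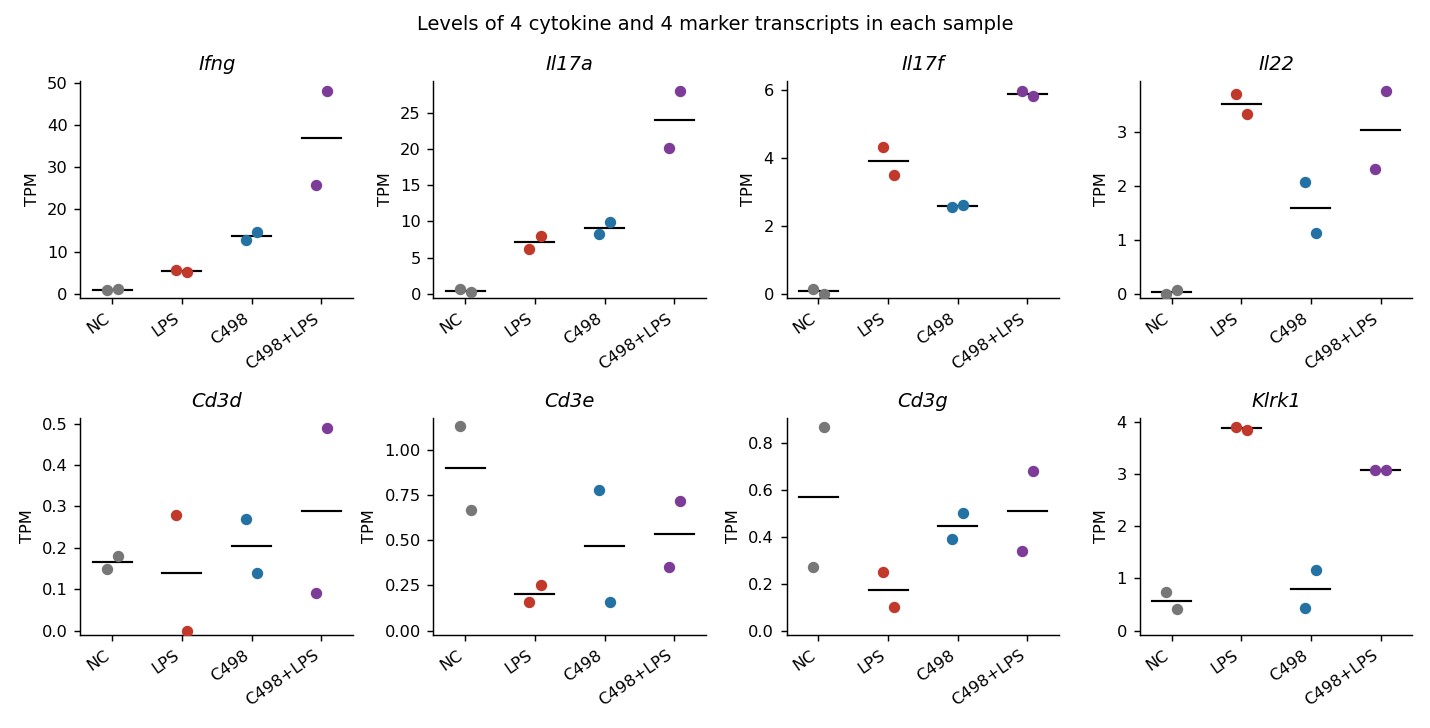
TPM of each of the 8 genes in NC, LPS, C498 and C498+LPS, with 1 point per sample and a bar at the group mean of 2 samples. Ifng, Il17a and Il17f are highest in C498+LPS, Il22 overlaps between LPS and C498+LPS, Cd3d, Cd3e and Cd3g stay at or below 1.13 TPM, and Klrk1 is high in both groups that received LPS.

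The Cd3 genes were near the lower end of the measured range in every group, including those where the cytokines were high. Cd3e (ENSMUSG00000032093), which encodes the ε chain, was at 1.13 and 0.67 TPM in NC, 0.16 and 0.25 in LPS, 0.78 and 0.16 in C498, and 0.35 and 0.72 in C498+LPS. Cd3g (ENSMUSG00000002033), which encodes the γ chain, was at 0.27 and 0.87 TPM in NC, 0.25 and 0.10 in LPS, 0.39 and 0.50 in C498, and 0.34 and 0.68 in C498+LPS. Cd3d (ENSMUSG00000032094), which encodes the δ chain, was at 0.15 and 0.18 TPM in NC, 0.28 and 0 in LPS, 0.27 and 0.14 in C498, and 0.09 and 0.49 in C498+LPS. NC and C498 overlapped for each of the 3 genes, and LPS lay below NC without overlap for Cd3e and Cd3g, as it did for 42.2% of all genes tested. C498+LPS lay above LPS without overlap for these 2 genes, as it did for 31.9% of all genes tested. All 3 had a mean below 1 TPM and were left out of the tests by the filter. In a fit without the filter, limma gave log2(TPM + 1) changes from LPS vs NC of -0.04 for Cd3d, -0.65 for Cd3e and -0.39 for Cd3g, with adjusted p from 0.184 to 1.00. The changes from C498 to C498+LPS in that fit were 0.06 to 0.08, with adjusted p from 0.876 to 0.963.

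Klrk1 (ENSMUSG00000030149) had a different pattern from both the cytokines and the Cd3 genes. It was at 0.74 and 0.41 TPM in NC, 3.91 and 3.85 in LPS, 0.44 and 1.16 in C498, and 3.09 and 3.08 in C498+LPS. Both groups with LPS were above both groups without it, NC and C498 overlapped, and C498+LPS lay below LPS, as for 30.9% of all genes tested. The log2(TPM + 1) difference made by C498 was 0.17 without LPS and -0.26 with LPS. The first became -0.12 without C498 replicate 2. Klrk1 was 0.997 times as high in C498+LPS replicate 2 as in replicate 1, whereas the T cell, NK cell and type 1 marker sums of that sample were higher.

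Set side by side, the summed level of the 4 cytokines was 1.42 to 1.71 TPM in NC, 19.9 to 20.1 TPM in LPS, 25.6 to 28.4 TPM in C498 and 54.2 to 85.5 TPM in C498+LPS. The Cd3 sum ranged from 1.55 to 1.72 TPM in NC, 0.35 to 0.69 in LPS, 0.80 to 1.44 in C498 and 0.78 to 1.89 in C498+LPS. The cytokine sum was thus about as large as the Cd3 sum in NC and far above it in the other groups. The ratio of Ifng to the Cd3 sum was 0.568 and 0.669 in NC, 8.19 and 14.9 in LPS, 8.83 and 18.4 in C498, and 33.2 and 25.4 in C498+LPS. Between the 2 C498+LPS samples the ratio was lower in replicate 2, the sample with more Cd3. For Il17a the ratio was 0.439 and 0.116 in NC, 9.04 and 22.9 in LPS, 5.75 and 12.4 in C498, and 25.8 and 14.8 in C498+LPS, so that LPS and C498+LPS overlapped. Dividing by a sum near 1 TPM makes these ratios imprecise.

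**Figure D3:**
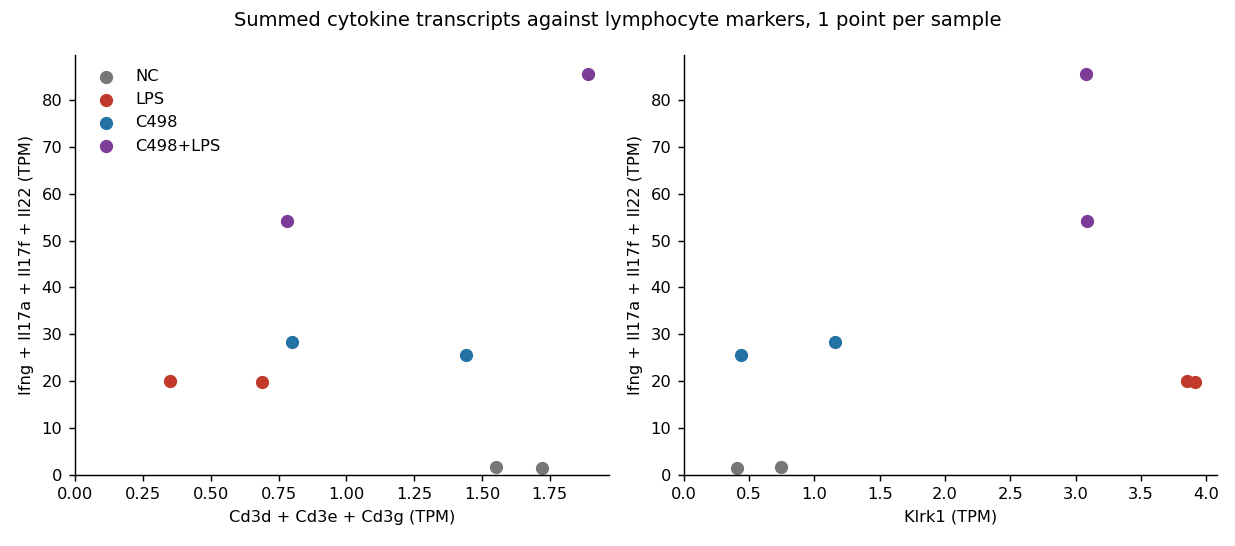
Summed TPM of Ifng, Il17a, Il17f and Il22 against the summed TPM of Cd3d, Cd3e and Cd3g (left) and against the TPM of Klrk1 (right), 1 point per sample, colored by group. The NC samples combine the lowest cytokine sums with Cd3 sums of 1.55 and 1.72, and the LPS and C498+LPS samples share high Klrk1 at different cytokine sums.

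The T cell receptor constant genes Trac, Trbc1 and Trbc2, singled out after their values were seen, gave another denominator with more signal. Their sum was 1.33 and 3.30 TPM in NC, 3.27 and 1.35 in LPS, 7.27 and 3.83 in C498, and 4.26 and 9.17 in C498+LPS. The sum did not overlap between C498 and NC or between C498+LPS and LPS, where 29.3% and 31.9% of all genes tested lay higher without overlap. Trac alone was at 0.73 and 1.36 TPM in NC and at 0.66 and 0.28 in C498, so the higher sum in C498 came from Trbc1 and Trbc2. Relative to this sum, Ifng was at 0.662 and 0.348 in NC, 1.73 and 3.87 in LPS, 1.75 and 3.85 in C498, and 6.07 and 5.24 in C498+LPS. Ifng per receptor transcript therefore overlapped between LPS and C498. Il17a per receptor transcript was at 0.511 and 0.0606 in NC and at 1.91 and 5.95 in LPS. It was at 1.14 and 2.58 in C498 and at 4.72 and 3.05 in C498+LPS, so LPS overlapped both groups with C498. Per Cxcr6, a chemokine receptor, Ifng was at 4.04 and 4.92 in LPS, 3.68 and 4.13 in C498, and 6.42 and 5.33 in C498+LPS. Il17a per Cxcr6 was at 4.46 and 7.58, 2.39 and 2.77, and 4.99 and 3.11 in the same order. Per Thy1, a T cell antigen, Ifng was at 2.23 and 1.67, 3.91 and 4.69, and 5.43 and 7.29, without overlap. Il17a per Thy1 was at 2.47 and 2.57, 2.55 and 3.15, and 4.22 and 4.24. Whether the number of T cells differed between samples was not tested.

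As a description over the 8 samples, which fall into 4 groups of 2 and share that structure, Pearson's r of log2(TPM + 1) was 0.96 between Ifng and Il17a, 0.956 between Il17a and Il17f, 0.937 between Il17f and Il22 and 0.714 between Ifng and Il22. For Ifng it was 0.409 against Cd3d, -0.28 against Cd3e and 0.115 against Cd3g. For Il17a the values were 0.259, -0.413 and -0.15 in the same order. Against Klrk1 it was 0.449 for Ifng and 0.799 for Il22. The genes most like each cytokine that are named here were not on the lymphocyte marker lists. The search covered only the 12189 genes tested, which held 18 of the 71 lymphocyte marker genes described below. Nothing is therefore read from their absence. The most similar genes were Timp1 (r = 0.996), Ccn1 (0.996), Bdkrb1 (0.995), Mmp3 (0.994) and Tubb2b (0.990) for Ifng. For Il17a they were Gja1 (r = 0.993), Carhsp1 (0.990), Pabpc4 (0.988) and Vcam1 (0.986). Those of Il17f were Irf1 (r = 0.997), Abtb2, Tnfaip3, Serpinb2 and Cxcl2, and those of Il22 were Ube2s (r = 0.992), Tubb6, Serpina3g, Serpina3f and Tgtp1.

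LPS raised Il17a, Il17f, Il22, Ifng and Klrk1 when given alone. This comparison did not choose the genes, although its NC samples are shared with the one that did, and the study had picked Ifng and Il17a for a panel of inflammatory factors on these samples. By limma on log2(TPM + 1), the change in LPS vs NC was 2.51 for Il17a (standard error 0.252, adjusted p = 0.000579), 2.19 for Il17f (0.208, adjusted p = 0.000439) and 2.12 for Il22 (0.288, adjusted p = 0.00209). It was 1.64 for Klrk1 (standard error 0.268, adjusted p = 0.00439), while that of Ifng was 1.68 (0.278). For these 5 genes LPS lay above NC without overlap, as for 19.3% of all genes tested, and each passed a fold change of 2 at an adjusted p of 0.05, as did 5.55% of all genes tested in the upward direction and 6.68% in the downward direction. Il17a, Il17f, Il22 and Klrk1 were below 1 TPM in both NC samples and reached the filter only through treated groups, so no weight is put on how many of the genes passed. In the fit without the filter adjusted p were 0.00316 for Il17f, 0.00388 for Il17a, 0.00907 for Il22, 0.0161 for Klrk1 and 0.0193 for Ifng. The 5 calls held under every alternative that tested the gene. Il17f and Il22 did not reach the stricter filter, a mean of 5 TPM, and nor did Klrk1.

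In the presence of C498 the estimates of the 5 genes were also above 0. The C498 samples and the C498+LPS samples supplied values by which the cytokines were chosen, Klrk1 reached the filter only through the LPS groups, and the calls depended on the settings and on single samples, so no weight is put on which genes passed. From C498 to C498+LPS the change was 1.30 for Ifng (standard error 0.278, adjusted p = 0.0221), 1.30 for Il17a (0.252, adjusted p = 0.0163) and 1.21 for Klrk1 (0.268, adjusted p = 0.0250) by limma. Il17f differed by 0.94 (0.208, adjusted p = 0.0246), under the fold change of 2, and Il22 by 0.64 (0.288, adjusted p = 0.180). In the upward direction 2.52% of all genes passed and in the downward direction 3.13%. Both C498+LPS samples were above both C498 samples for each of the 5 genes, as was the case for 17.4% of all genes tested. Without the filter the 3 calls were lost (adjusted p = 0.0655 for Ifng, 0.0504 for Il17a and 0.0643 for Klrk1). That of Ifng was also lost with only the groups compared (adjusted p = 0.0685) and that of Il17a with a pseudocount of 0.1 TPM (adjusted p = 0.0724). Il17f was called after centring on the median gene (1.16, adjusted p = 0.0065) and after quantile normalization (1.18, adjusted p = 0.00705). Without C498+LPS replicate 2 the change was 0.87 for Ifng (adjusted p = 0.0850), 1.07 for Il17a (adjusted p = 0.111), 0.96 for Il17f (adjusted p = 0.0875) and 1.21 for Klrk1 (adjusted p = 0.0995). Leaving out either C498 sample also ended the calls of Ifng and Il17a (adjusted p from 0.0894 to 0.146), leaving out C498 replicate 1 or C498+LPS replicate 1 ended that of Klrk1 (adjusted p = 0.111 and 0.0907), and leaving out either LPS sample ended those of Ifng and Klrk1 (adjusted p from 0.0528 to 0.0556).

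**Figure D4:**
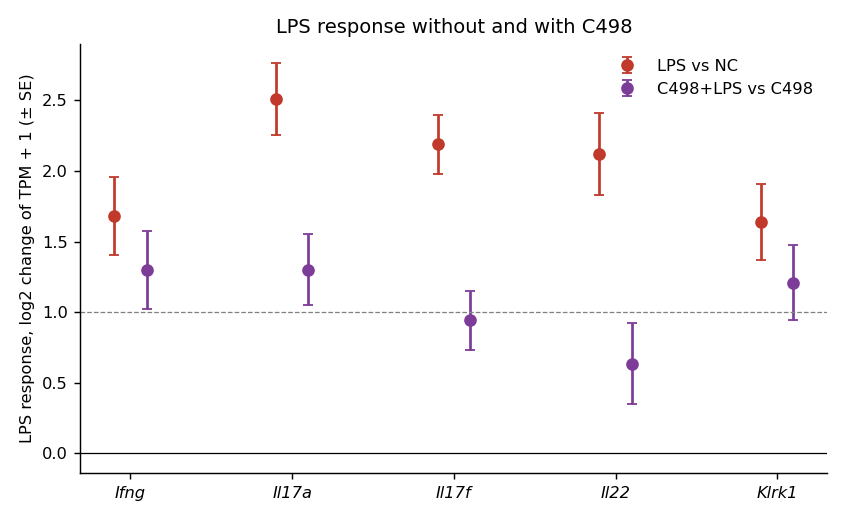
Change with LPS on the log2(TPM + 1) scale for LPS vs NC and for C498+LPS vs C498, with standard errors from limma and a dashed line at a fold change of 2. Each of the 5 estimates exceeds the line without C498, and those of Ifng, Il17a and Klrk1 exceed it with C498.

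On the log2(TPM + 1) scale the LPS change was smaller with C498 than without it for each of the 5 genes. The gap was 0.37 for Ifng, 0.43 for Klrk1, 1.21 for Il17a, 1.25 for Il17f and 1.49 for Il22. With a pseudocount of 0.1 TPM in place of 1 the gaps were larger, at 0.96 for Ifng, 0.66 for Klrk1, 2.51 for Il17a, 3.5 for Il17f and 3.88 for Il22. Without C498+LPS replicate 1 the Ifng change was 1.74 with C498 and 1.68 without it. In TPM the gain of the Ifng mean was larger with C498 (13.7 to 36.9) than without it (1.0 to 5.4). That of Il17a was also larger with C498 (9.1 to 24.0 against 0.44 to 7.1), while those of Klrk1, Il17f and Il22 were smaller. These differences contain the contrast by which the cytokines were chosen and were not tested.

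Lists of lymphocyte genes gave a wider view than the 4 marker genes. They comprised 71 genes in all: T cell markers, γδ T cell and type 17 markers, NK cell and cytotoxic markers and type 1 lymphocyte markers. Of these, 45 were below 1 TPM in every sample and 18 reached the filter. Among the defining transcripts, named after their values were seen, Il23r, the receptor chain for IL-23, did not exceed 0.27 TPM, Tbx21 (T-bet, the factor of type 1 lymphocytes) 0.52, Ncr1 (the NK cell receptor NKp46) 0.25 and Trdc (the constant chain of the γδ receptor) 0.87 TPM. Ncr1 was at 0 in both NC samples, and none of these 4 was at 0 in all samples.

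In C498 vs NC, 4 of the 18 tested lymphocyte genes were called higher and 0 lower, where 5.64% of all genes tested were called higher and 1.36% lower. All 4 belonged to the γδ T cell and type 17 list: Il1r1, the IL-1 receptor (log2 change 1.63, adjusted p = 0.00999), Ahr, the aryl hydrocarbon receptor (1.58, adjusted p = 0.0118), Rora, a nuclear receptor (1.48, adjusted p = 0.0324), and Cxcr6, a chemokine receptor (1.31, adjusted p = 0.0403). Il1r1, Ahr and Rora are also made by cells other than lymphocytes. The median log2 change of the 7 tested genes of that list was 1.31, against 0.01 for all genes tested. The call of the 4 genes rested on the C498 samples, since without either of them 0 were called, and without the filter 2 were called. Cxcr6 was at 0.71 and 0.95 TPM in NC, 1.40 and 1.06 in LPS, 3.46 and 3.57 in C498, and 4.03 and 9.0 in C498+LPS. In C498+LPS vs LPS it was the only lymphocyte gene called (1.67, adjusted p = 0.0155), where 5.39% of all genes tested were called higher, and without C498+LPS replicate 2 (1.18, adjusted p = 0.0543 for Cxcr6), without either LPS sample or without the filter 0 were called. The level of Cxcr6 in C498+LPS replicate 2, the sample rich in lymphocyte transcripts, was more than that of any other sample.

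Of the T cell list, 0 of 6 tested genes were called by limma for LPS without C498, LPS with C498, C498 without LPS or C498 with LPS, and at an unadjusted p under 0.05 there were 1, 0, 2 and 2, all higher. Over all genes tested, 5.55%, 2.52%, 5.64% and 5.39% were called higher in these comparisons. An unadjusted p under 0.05 in either direction was seen for 41.2%, 31.9%, 32.0% and 31.2%, so 6 genes are too few to set 0 to 2 apart. The median log2 change of the 6 was 0.46 in C498 vs NC and 0.75 in C498+LPS vs LPS, against 0.01 for all genes. In C498+LPS vs NC limma called Trbc2 (1.44, adjusted p = 0.0435) and Tcf7 (1.04, adjusted p = 0.0377) higher. There 50.7% of all genes had an unadjusted p under 0.05. Trbc1, Trbc2 and Tcf7 reached the filter only through the C498 groups, so no weight is put on these values. The summed level of the 25 T cell markers was 17.2 to 20.4 TPM in NC, 21.9 to 26.2 in LPS, 23.8 to 27.3 in C498 and 26.6 to 37.2 in C498+LPS. Lat, a signaling adaptor, made up the largest share of it, with a mean of 8.53 TPM. Thy1, a surface antigen of T cells that other cells also carry, was at 1.73 and 3.73 TPM in NC and at 4.76 and 6.59 in C498+LPS. Of the NK cell and cytotoxic list, 0 of 3 tested genes were called by limma in these 4 comparisons, with 0, 0, 0 and 2 at an unadjusted p under 0.05. The median log2 change of the list was 0.42 in C498 vs NC and 0.82 in C498+LPS vs LPS. Its sum was 6.28 to 6.40 TPM in NC, 5.32 to 8.33 in LPS, 6.54 to 8.06 in C498 and 8.12 to 12.2 in C498+LPS. The 2 tested type 1 genes, Stat4 and Runx3, were not called in any of the 4 either, with 0, 0, 1 and 1 at an unadjusted p under 0.05. Their median log2 change was 0.69 in C498 vs NC and 0.73 in C498+LPS vs LPS. In C498+LPS vs NC limma called Stat4 higher (1.45, adjusted p = 0.0131). Values of that comparison without C498+LPS replicate 2 are not given here. Stat4, which carries the signal of IL-12 in lymphocytes, was at 1.30 and 1.38 TPM in NC, 2.53 and 1.82 in LPS, 3.71 and 2.87 in C498, and 3.53 and 8.01 in C498+LPS.

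**Figure D5:**
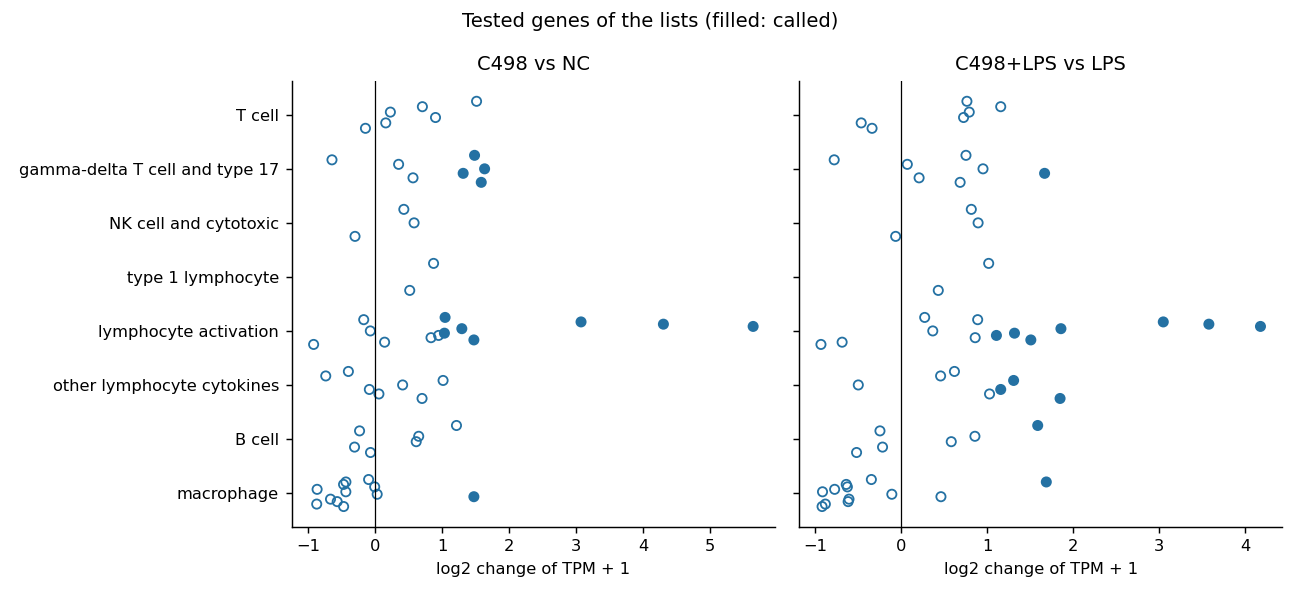
Log2(TPM + 1) changes of the tested genes of each list in C498 vs NC (left) and C498+LPS vs LPS (right), 1 point per gene, filled where limma called the gene at a fold change of 2 and an adjusted p of 0.05. In C498 vs NC the T cell, NK cell and type 1 lists hold 0 called genes, the γδ T cell and type 17 list 4 and the lymphocyte activation list 7.

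Antigen receptor signaling in lymphocytes induces a set of activation genes, many of which macrophages also use. Of 13 tested genes of the lymphocyte activation list, 7 were called higher and 0 lower in C498 vs NC, and likewise 7 and 0 in C498+LPS vs LPS, where 5.64% and 5.39% of all genes were called higher and 1.36% and 2.18% lower. Irf4, Nr4a2 and Il2ra reached the filter only through the C498 groups, so the counts are not read against these shares. In the fit without the filter, over all 18 genes of the list, 5 were called higher in the first comparison, with Irf4 at an adjusted p of 0.0759 and Tnfrsf9 also not called, and 7 in the second, where Lag3 took the place of Il2ra. Batf, an AP-1 family factor, went the other way without reaching the fold threshold (-0.92 in C498 vs NC, adjusted p = 0.0101). In C498+LPS vs LPS it differed by -0.93 (adjusted p = 0.00839). Without either C498 sample 3 were called in the first comparison, and without C498+LPS replicate 2 or either LPS sample 4 in the second. Nr4a1, an orphan nuclear receptor, rose by 5.64 (adjusted p = 1.08e-05) from 0.97 and 1.27 TPM in NC to 105 and 104 TPM in C498. Egr2, a transcription factor, and Nfil3, a bZIP factor, rose by 1.47 and 1.29. Cd69, an early activation antigen, responded to LPS (4.48 in LPS vs NC, adjusted p = 4.24e-06) and was not called in C498 vs NC (0.14, adjusted p = 0.566). It was lower in C498+LPS vs LPS (-0.68, adjusted p = 0.0223), short of the fold threshold. Il2ra, a receptor chain of IL-2 on activated T cells, stood at 2.84 and 5.38 TPM in C498+LPS, and its difference in C498+LPS vs LPS was 1.11 (adjusted p = 0.0459). It was not called without the filter (adjusted p = 0.105) or with the replicate block (adjusted p = 0.0539). Nor was it called with a pseudocount of 0.1 TPM, quantile normalization or only the groups compared (adjusted p from 0.0696 to 0.081). The call also ended without C498+LPS replicate 2 (0.75), either C498 sample or either LPS sample.

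Most other lymphocyte cytokines were low. Of 22 such genes, 12 were below 1 TPM in every sample, and 4 of them, Il9, Il17b, Il24 and Il25, were listed at 0 throughout. In C498 vs NC limma called 0 of the 7 tested, with 1 higher and 1 lower at an unadjusted p under 0.05. Of all genes tested 5.64% were called higher and 1.36% lower there, and 32.0% had an unadjusted p under 0.05. In C498+LPS vs LPS 3 passed in the fit with the filter, namely Areg, a ligand of the EGF receptor (1.85, adjusted p = 0.0323), Tnfsf11, which encodes RANKL (1.31, adjusted p = 0.0363), and Il10 (1.16, adjusted p = 0.0315), each of which is also made outside the lymphocyte lineage, where 5.39% of all genes were called higher. Areg and Il10 had group means under 1 TPM except in C498+LPS and reached the filter only through it, and Tnfsf11, with means of 0.265 TPM in NC and 0.51 in LPS, reached it only through the C498 groups. Without the filter none of the 3 was called, with adjusted p of 0.0778 for Areg, 0.0712 for Tnfsf11 and 0.0556 for Il10. Without C498+LPS replicate 2 the values were 1.43 for Areg (adjusted p = 0.176), 0.95 for Tnfsf11 (0.151) and 0.95 for Il10 (0.133), and without either LPS sample 0 were called. Csf2, encoding GM-CSF, had means of 0.385 TPM in NC and 0.49 in C498 and reached the filter only through the groups given LPS. Its change with LPS was 1.53 without C498 (adjusted p = 0.0206) and 2.52 with it (adjusted p = 0.00635), and without the filter adjusted p were 0.0643 and 0.0258. The former was also not called without LPS replicate 1, LPS replicate 2 or NC replicate 2 (adjusted p = 0.0765, 0.113 and 0.0779), and the latter was 2.40 without C498+LPS replicate 2 (adjusted p = 0.0553).

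Macrophages make cytokines that drive IFN-γ and IL-17 production. Of 11 tested genes of this kind, 9 were called higher with LPS alone and 9 from C498 to C498+LPS (5.55% and 2.52% of all genes), 2 were higher in C498 vs NC (5.64%), and 3 were lower and 0 higher in C498+LPS vs LPS, where 2.18% of all genes were called lower. Il12a, a subunit of IL-12, which induces IFN-γ, was at 176 and 164 TPM in LPS and at 53.3 and 46.2 TPM in C498+LPS (-1.75, adjusted p = 0.000625), a level lower with both agents than with LPS alone. Il27 fell by 1.30 (adjusted p = 0.00226). Il1b, which acts on IL-17-producing cells, rose by 1.01 in C498 vs NC (adjusted p = 0.00453) and Il6 by 2.02 (adjusted p = 0.000428). Il23a, the subunit specific to IL-23, was too low to be tested, at 0.13 and 0 TPM in NC, 1.04 and 0.67 in LPS, 0.13 and 0.08 in C498, and 1.77 and 2.97 in C498+LPS.

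The 13 macrophage markers, the labelled cell type, summed to 21612 to 21717 TPM in NC, 18757 to 19347 in LPS, 16725 to 16920.1 in C498 and 12943 to 14751 in C498+LPS. Lyz2 made up most of the sum, with means of 15986 TPM in NC and 8536 TPM in C498+LPS. Of the 12 tested, 2 had positive changes in C498 vs NC and 2 in C498+LPS vs LPS. Cd14, the LPS co-receptor, was higher in C498 vs NC (1.47, adjusted p = 0.000121), and 0 were called lower in either comparison. Cd68 had means of 2791 TPM in NC and 2839 in C498. The sum was lowest where the cytokine sum was highest, and whether this bears on the cytokine levels was not tested. Among 12 neutrophil markers, which summed to 244 to 263 TPM in NC, 226 to 245 in LPS, 136 to 144 in C498 and 129 to 157 in C498+LPS, 5 were tested. Retnlg, a secreted neutrophil protein, was lower in C498 vs NC (-1.64, adjusted p = 0.00975) and in C498+LPS vs LPS (-1.78, adjusted p = 0.00607), and was also called without the filter (adjusted p = 0.0359 and 0.0248), though not in the first without C498 replicate 2 (-1.43, adjusted p = 0.0689) or with only the groups compared (adjusted p = 0.0632), nor in the second without LPS replicate 1 (-1.73, adjusted p = 0.0531). Csf3r, the G-CSF receptor, was lower in C498+LPS vs LPS (-1.26, adjusted p = 0.00191). Of all genes tested 1.36% and 2.18% were called lower in these comparisons.

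The 8 dendritic cell markers summed to 48.1 to 61.8 TPM in NC, 60.2 to 63.5 in LPS, 90.9 to 92.0 in C498 and 97.7 to 151 in C498+LPS, and 3 of them were tested. Ccr7, a chemokine receptor of migrating dendritic cells and T cells, was higher in C498 vs NC (1.57, adjusted p = 0.0274) and in C498+LPS vs LPS (2.06, adjusted p = 0.00926), where 5.64% and 5.39% of all genes were called higher. Its first call was lost without the filter (adjusted p = 0.0781) and without any 1 NC, LPS or C498 sample (adjusted p from 0.0533 to 0.155), and its second without either LPS sample (adjusted p = 0.0704 and 0.075) and with only the groups compared (adjusted p = 0.053). Ccr7 carried most of the difference in the sum, with means of 10.6 TPM in NC, 16.7 in LPS, 33.4 in C498 and 79.5 in C498+LPS. Itgax, an integrin that macrophages share, had means of 42.9, 44.0, 54.6 and 40.7 TPM in the same order. Clec9a, a receptor of conventional dendritic cells, had a mean of 0.55 TPM in NC and was listed at 0 in C498+LPS. Zbtb46, a transcription factor of the dendritic cell lineage, had means of 0.6 and 0.635 TPM in NC and LPS and of 2.01 and 2.81 in C498 and C498+LPS, and reached the filter only through the latter pair. Its difference of 1.21 in C498+LPS vs LPS (adjusted p = 0.0354) was not called without the filter (adjusted p = 0.0751), with a pseudocount of 0.1 TPM (adjusted p = 0.054) or without any 1 LPS, C498 or C498+LPS sample (adjusted p from 0.0502 to 0.171). What part cells other than macrophages had in the cytokine levels was not tested.

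B cell markers summed to 135 to 140 TPM in NC, 164 to 165 in LPS, 144 to 165 in C498 and 145 to 219 in C498+LPS, and Ighm was called higher in C498+LPS vs LPS (1.59, adjusted p = 0.0484), as were 5.39% of all genes. Ighm was at 37.2 TPM in C498+LPS replicate 1 and 106 TPM in replicate 2, and was not called without replicate 2 (0.84, adjusted p = 0.143), without the filter (adjusted p = 0.13) or without any 1 NC, LPS or C498 sample (adjusted p from 0.0632 to 0.198). Of the 6 tested B cell markers 3 had positive changes in that comparison, and Blnk, a signaling adaptor, differed by -0.52 (adjusted p = 0.0161).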

How the data were processed

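Total RNA of 8 samples was sequenced on an Illumina NovaSeq. The deposited values are TPM per gene, which the authors obtained with RSEM after read filtering (fastp), alignment (HISAT2) and transcript assembly (StringTie), and which correct for length and library size. Tool versions, genome build and annotation are not given in the sources used here. DESeq2, which the authors used on counts, was not run because counts were not used here. Group means in the table were not used.

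The 8 genes and all gene lists were chosen with earlier results of these data known. Of all genes, 12189 had a mean of at least 1 TPM, and their log2(TPM + 1) values were fitted with limma 3.58.1 in R 4.3.3, with 1 mean per group, a variance trend and Benjamini-Hochberg adjustment. Calls required a 2-fold change and an adjusted p no higher than 0.05. Of the 8 genes, 5 were tested, and Cd3d, Cd3e and Cd3g were too low. Fold changes on this scale understate changes of low genes. An exact two-sided permutation test of 2 against 2 samples cannot go below p = 0.333. Named were the 8 genes, the 4 highest of each list, the called genes of the lymphocyte lists and the 5 genes most similar to each cytokine, of which 1 is not reported here. Other names were chosen after their values were seen. The steps were tested on simulated data. Tables used pandas 2.3.3 and numpy 2.4.6, and figures matplotlib 3.10.9.

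Alternatives were a pseudocount of 0.1 TPM, no filter, a mean of at least 5 TPM, centring on the median gene, quantile normalization, only the groups compared, no variance trend, a replicate block, no fold threshold and leaving out each sample. Promoter letters came from RefSeq on GRCm38.p6, which held all 8 genes. A planned comparison of the IL-17A and IL-17F proteins was not made.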

Additional observations from a re-analysis of the deposited data

How the results depend on the processing

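With 2 samples a group and unknown read depth, the error of values near 0 TPM is known only from the difference between replicates. Without a fold threshold 1200 genes were higher and 2409 lower in LPS vs NC (677 and 814 with it), 1132 and 754 in C498 vs NC (687 and 166), 1107 and 938 in C498+LPS vs LPS (657 and 266), and 550 and 1430 in C498+LPS vs C498 (307 and 381). Centring on the median gene gave 196 lower genes in C498+LPS vs C498, 530 in LPS vs NC and 269 in C498 vs NC, and quantile normalization 510 in LPS vs NC and 266 in C498 vs NC. LPS moved the median gene by -0.17 and C498 by 0.01. A mean of at least 5 TPM gave 452 higher genes in C498 vs NC and 382 in C498+LPS vs LPS. Fitting only the groups compared gave 306 higher and 73 lower genes in C498 vs NC. Lymphocyte markers called higher in C498 vs NC numbered 4, with 2 without a filter or at 5 TPM and 1 with only the groups compared. In C498+LPS vs LPS 1 became 0 under these 3 settings, and in LPS vs NC 1 became 0 with only the groups compared. Causes of these differences were not tested.

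Leaving out 1 sample gave 514 to 931 higher and 628 to 1078 lower genes in LPS vs NC, 274 to 1186 and 71 to 215 in C498 vs NC, 300.0 to 677 and 141 to 279 in C498+LPS vs LPS, and 181 to 319 and 183 to 401 in C498+LPS vs C498. Higher genes in C498 vs NC numbered 274 and 309 without C498 replicates 1 and 2, and 1186 and 425 without NC replicates 1 and 2. Those in C498+LPS vs LPS numbered 333 without C498+LPS replicate 2 and 340.0 and 300.0 without LPS replicates 1 and 2, and those in C498+LPS vs C498 numbered 183 and 181 without C498 replicates 1 and 2. Lymphocyte markers called higher then ranged from 0 to 3 in C498 vs NC and from 0 to 2 in C498+LPS vs LPS. The C498 difference of Klrk1 without LPS, 0.17, was -0.11 under quantile normalization and from -0.121 to 0.464 without 1 sample, with the lowest value without C498 replicate 2. That of Il22 with LPS, -0.18, was from -0.445 to 0.0761 without 1 sample, with the highest value without C498+LPS replicate 1.

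Same-numbered samples deviated from their group means with correlations of 0.04 to 0.17 and share only a number. With the replicate block 740 genes were higher in C498 vs NC, 322 in C498+LPS vs C498, 677 in C498+LPS vs LPS and 696 in LPS vs NC, and the number of lymphocyte markers called was the same in each.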

Other observations

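Genes known to respond to IFN-γ and IL-17 were measured in the same samples. Of 18 tested IFN-γ target genes, 11 were called higher in LPS vs NC, 6 in C498+LPS vs C498, 5 in C498 vs NC and 2 in C498+LPS vs LPS, with 0 called lower in each. Over all genes tested 5.55%, 2.52%, 5.64% and 5.39% were called higher. In C498 vs NC the median log2 change of the list was 0.61, and in C498+LPS vs LPS it was -0.27, against 0.01 for all genes tested in both. Irf1, a transcription factor induced by IFN-γ and by LPS, was at 166 and 157 TPM in NC, 527 and 446 in LPS, 389 and 359 in C498, and 612 and 553 in C498+LPS, and rose in C498 vs NC by 1.21 (adjusted p = 0.000834). The 2 genes higher in C498+LPS vs LPS, named after their values were seen, were Cxcl9, a chemokine that attracts T cells (1.44, adjusted p = 0.00671, and 1.27, adjusted p = 0.0597, without C498+LPS replicate 2), and Irf8, a factor of the myeloid lineage (1.43, adjusted p = 0.00122). Many of these genes also respond directly to LPS.

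Of 11 tested IL-17 target genes, 9 were called higher in LPS vs NC, 8 in C498+LPS vs C498 and 8 in C498 vs NC, against 5.55%, 2.52% and 5.64% of all genes. Whether they responded to IL-17, or directly to LPS and C498, was not tested. In C498+LPS vs LPS 1 was higher and 2 lower, against 5.39% and 2.18%. The higher one, Steap4, a metalloreductase, was not called without C498+LPS replicate 2 (1.01, adjusted p = 0.148), without the filter (adjusted p = 0.0859) or without any 1 other sample of LPS, C498 or C498+LPS (adjusted p from 0.0541 to 0.165). The lower ones, the neutrophil chemokine Cxcl3 and the iron-sequestering protein Lcn2, fell by 1.42 (adjusted p = 0.00195) and 1.29 (adjusted p = 0.000619). Cxcl1, another neutrophil chemokine, was at 12.7 and 12.1 TPM in NC, 659 and 665 in LPS, 131 and 114 in C498, and 1407 and 1207 in C498+LPS. Among 11 tested receptor and signaling genes of these cytokines, 0 were called in C498 vs NC or C498+LPS vs LPS by limma, with 1 higher and 3 lower, and 1 higher and 4 lower, at an unadjusted p under 0.05, against 32.0% and 31.2% of all genes in either direction. Il10rb, a receptor chain shared by IL-10 and IL-22, was at 154 to 182 TPM in NC and 71.3 to 77.4 TPM in C498+LPS. Il22ra1, the chain specific to IL-22, was at 0.26 and 0.05 TPM in NC and at 1.2 and 1.14 TPM in C498, too low to be tested.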
